A study of Homo sapiens with 4 samples.

Results

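The very broad promoter peaks were the 306 consensus ATAC-seq peaks of at least 900 bp that lay within 1 kb of the start of a protein-coding transcript, out of 139872 consensus peaks and 19614 coding promoter peaks in all. Members were chosen by a measured value, the length of the peak as the authors called it in these same libraries, so length, and the level that goes with it, are given as a description and are supported by no test. Open chromatin was profiled by ATAC-seq (a transposase cuts exposed DNA and inserts sequencing adaptors) in SEM cells, a human B cell precursor leukemia line with an MLL rearrangement. All cells carried the lentiviral dCas9-KRAB construct with blasticidin resistance, a nuclease-dead Cas9 joined to the KRAB repressor domain. In 2 libraries the cells also carried sgFLT3-DE-1, a guide RNA directed at a distal enhancer of FLT3, and in the other 2 the non-target guide sgNT, both delivered in a puromycin-selectable lentiviral guide vector. The study calls libraries of a condition biological replicates, but the sources used here do not say whether they came from separate cultures or whether the lines were clonal, so p-values reflect the spread of these 4 libraries, some or all of it possibly technical. Counts in the 306 members summed to 84818 and 97569 in the sgFLT3-DE-1 libraries, against 76776 and 53934 in the sgNT libraries, between 2.01% and 2.31% of each library, in 1.06% of all peak bases. All 306 passed the filter on low counts. Promoter peaks were present for 8 of 10 B cell precursor markers, against 4 of 8 T cell and 5 of 8 myeloid markers, and none of these markers held a very broad one.

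A promoter is the stretch of DNA around a transcription start where RNA polymerase II and general transcription factors assemble. Most promoters of widely used genes sit in CpG islands, GC-rich stretches kept free of DNA methylation, where SP and KLF factors bind GC boxes, NF-Y binds CCAAT boxes and nucleosomes are often displaced from both sides of the start. ATAC-seq reads this displacement. The length of a consensus peak also depends on how fragments were extended and how the peaks of several libraries were merged.

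Sequence upstream of the start differed in base composition and in motifs between members picked for their length, their level or their GC content. For each of 5 members the 200 bases nearest to the lead coding start on its upstream side that hold no annotated UTR are printed in GRCh37 coordinates, from 5′ to 3′ along the gene, with capitals at every match to one of 10 searched motifs. GSK3B is the longest member (minus strand, chr3:119813419-119813618, 2 inverted CCAAT boxes), CLOCK the next longest (minus strand, chr4:56413077-56413276, 1 NRF1 site), ZBTB20 the second by level (minus strand, chr3:114866140-114866339, 3 GC boxes and 3 CCAAT boxes), KCMF1 the richest in GC (plus strand, chr2:85198016-85198215, 2 GC boxes) and MRTFA the poorest in GC of those that cover a start (minus strand, chr22:40832315-40832514, 1 TATA box).
GSK3B: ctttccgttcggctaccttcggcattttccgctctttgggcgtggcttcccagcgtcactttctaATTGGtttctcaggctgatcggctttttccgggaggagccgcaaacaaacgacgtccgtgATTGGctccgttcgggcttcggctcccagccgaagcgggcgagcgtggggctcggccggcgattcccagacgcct
CLOCK: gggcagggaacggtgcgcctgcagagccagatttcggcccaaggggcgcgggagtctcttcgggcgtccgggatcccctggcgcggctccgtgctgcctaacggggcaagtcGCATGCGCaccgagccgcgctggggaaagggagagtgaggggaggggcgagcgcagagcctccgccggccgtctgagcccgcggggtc
ZBTB20: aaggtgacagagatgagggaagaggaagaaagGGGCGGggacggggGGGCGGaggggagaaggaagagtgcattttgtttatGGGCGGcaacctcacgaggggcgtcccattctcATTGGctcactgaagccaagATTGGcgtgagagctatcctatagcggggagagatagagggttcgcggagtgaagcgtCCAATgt
KCMF1: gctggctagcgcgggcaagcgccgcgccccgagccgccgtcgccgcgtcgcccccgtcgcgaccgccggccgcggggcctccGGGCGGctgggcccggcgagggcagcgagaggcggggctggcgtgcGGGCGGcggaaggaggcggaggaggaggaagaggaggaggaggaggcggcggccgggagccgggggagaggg
MRTFA: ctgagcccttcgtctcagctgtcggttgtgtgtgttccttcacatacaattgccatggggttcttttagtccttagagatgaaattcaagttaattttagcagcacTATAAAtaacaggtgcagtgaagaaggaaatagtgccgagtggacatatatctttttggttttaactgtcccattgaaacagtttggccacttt
GC content of these windows was 83.0% at KCMF1, with 34 CpG dinucleotides, and 40.5% at MRTFA, with 3.

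Length ran from 900 to 1834 bp with a median of 992.5 bp. The longest peak, 1834 bp on chromosome 3 from 119812832 to 119814665, belonged to GSK3B, a kinase that marks beta-catenin for degradation, and reached 1371 bp upstream and 462 bp downstream of its start. CLOCK, a partner of BMAL1 in the circadian clock, followed with 1585 bp, of which 1099 bp lay in the first intron. Next came CAMK2D (1459 bp), a subunit of calcium/calmodulin-dependent kinase II, GUCY1A1 (1424 bp), a subunit of the nitric oxide receptor guanylate cyclase, SLC16A7 (1413 bp), a monocarboxylate transporter, ST7 (1409 bp), DSE (1383 bp), an epimerase of dermatan sulfate synthesis, GPC6 (1371 bp), a glypican, MSL2 (1364 bp), a ubiquitin ligase of the MSL acetyltransferase complex, and LRRC8D (1318 bp), a subunit of the volume-regulated anion channel. These 10 lay far above the threshold, whereas the members nearest to it were TBL1XR1 at 902 bp, the shared peak of BEND6 and DST at 901 bp and DACT1 at 900 bp. Just outside it stood XRN2 and KDM6A, each 1 bp short of it, and the shared peak of HNRNPA2B1 and CBX3 at 898 bp. On both sides of the threshold levels covered a similar range, from 31.7 to 91.4 normalised CPM (CPM scaled by TMM factors, mean of 4 libraries) inside it and from 28.4 to 106.4 outside it, so the threshold divides a continuous series.

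Broad peaks extended into the gene as well as upstream of it. Of the 306 members, 297 covered a coding start, and these reached a median of 489 bp upstream and 523 bp downstream of the lead start, with the downstream arm the longer one in 161 of 297 (54.2%). In promoter peaks of 200 to under 400 bp that cover a start the medians were 193 and 86 bp, and the downstream arm was the longer one in 16.6%. At 600 to under 900 bp it was the longer one in 44.6%. Against the canonical transcript of the lead gene, 46.9% of members' bases lay upstream, 25.1% in exons and 27.9% in introns, compared with 53.8%, 24.4% and 21.8% for promoter peaks of 600 to under 900 bp. Exon 1 of the canonical transcript was touched by 281 members, whereas 12 lay wholly in its introns, among them those of MRTFA and KLF10, which cover alternative starts. The 9 members that cover no coding start were chosen by distance alone. They were those of JAK1 (49 bp from its nearest coding start), B4GALT6 (117 bp), GALNT7 (157 bp), PKP4 (196 bp), SETD5 (348 bp), MAP1B (443 bp), GPC6 (532 bp), KCNH8 (908 bp) and HBB (955 bp). The HBB peak, on chromosome 11 from 5246126 to 5247346, is not at a promoter, since it covers 263 bp of exon 3, 390 bp of intron 2 and 568 bp beyond the 3′ end of the gene.

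**Figure D1:**
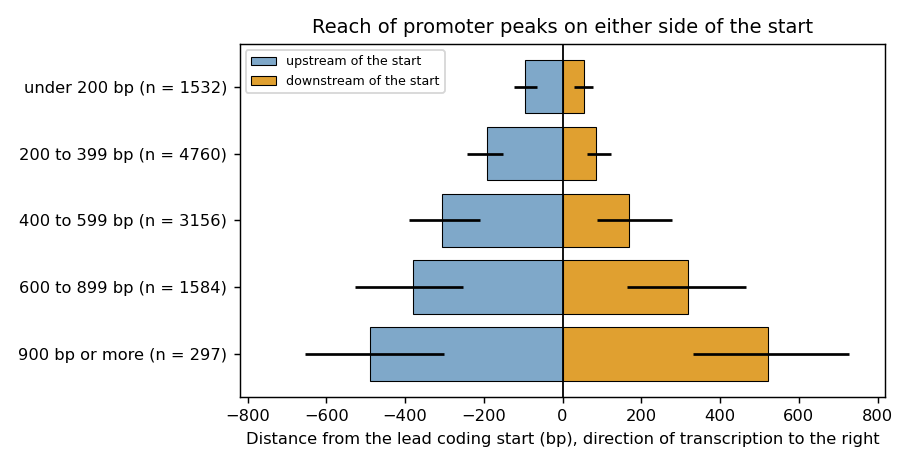
Median reach in bp of coding promoter peaks upstream (left) and downstream (right) of the lead coding start, by length of the peak, for peaks that cover a start, with black lines from the first to the third quartile. Members reached 489 bp upstream and 523 bp downstream, and peaks of 200 to under 400 bp reached 193 and 86 bp.

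The genes that held broad peaks were long and stood apart from other genes, the latter also at 600 to under 900 bp. A median of 2 coding genes had a start within 100 kb of members. The median was 2 at 600 to under 900 bp as well, and 3 for all promoter peaks. The 306 peaks lay within 1 kb of a start of 340 genes, out of 12387 coding genes with any promoter peak (2.74%). Their lead genes had a median length of 76.6 kb, against 57.2 kb for promoter peaks of 600 to under 900 bp and 42.9 kb for all promoter peaks. Where 1 or 2 coding genes had a start within 100 kb of the peak, 188 of 8071 promoter peaks were members (2.33%). With 3 to 5 such genes 102 of 6926 were (1.47%), with 6 to 10 there were 12 of 3408 (0.352%), and with more than 10 there were 4 of 1209 (0.331%). The GC content of all promoter peaks varied little along this series, with medians from 65.4% to 66.7%, while their median level was 11.7, 10.3, 8.09 and 7.74 normalised CPM from the fewest to the most such genes. By chromosome the share ran from 3.53% on chromosome 4 (31 of 878) and 3.39% on chromosome 8 (25 of 738) to 0.201% on chromosome 17 (2 of 996) and 0.0867% on chromosome 19 (1 of 1153). Promoter peaks of chromosomes 17 and 19 also had low median levels, 6.80 and 6.98 normalised CPM, compared with 15.9 on chromosome 4. Some members were shared by neighbouring genes. A start of at least 2 genes was covered in 30, and 26 (8.50%) covered starts on both strands, compared with 10.0% at 600 to under 900 bp.

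Among gene groups, broad peaks were spread thinly. The 10 gene lists of leukemia, B cell, early response, chaperone, translation, ribosomal, cell cycle, histone, chromatin and other-tissue genes held 220 genes with a promoter peak, of which 6 had a broad one (2.73%, against 2.74% of all genes). Of 28 MLL-fusion and HOXA programme genes with a promoter peak 1 held a broad one (3.57%), CPEB2, at 1318 bp. This gene encodes an RNA-binding protein that controls polyadenylation in the cytoplasm. HOXA9 itself had a longest promoter peak of 111 bp, MEIS1 of 336 bp and MYC of 686 bp. Others of this list fell just short of the threshold, namely AFF1 (885 bp), IKZF2 (884 bp), FLT3 (877 bp) and LMO2 (869 bp). The other list genes with a broad peak were KLF10, a KLF factor induced by TGF-beta, EEF1A1, the elongation factor that brings aminoacyl-tRNA to the ribosome, RPL7, whose peak also covers the start of retinol dehydrogenase RDH10, TYMS, the thymidylate synthase, and the histone gene H2AC8. None of 23 B-lineage regulators and receptor genes, 18 chaperones or 29 chromatin regulators with a promoter peak had one. At the 2.74% of all genes, lists of these sizes can hold none, so no difference from other genes is drawn. KDM6A and KMT2C (892 bp) of the chromatin list and HSP90AA1 (858 bp) of the chaperones lay close below the threshold. The longest promoter peak of the B-lineage list was 761 bp, at POU2AF1. Gene families grouped after their values were seen differed more widely. Broad peaks were present at 2 of 404 ZNF genes (0.495%), which encode C2H2 zinc finger proteins, and at 1 of 74 mitochondrial ribosomal protein genes. They were present at 11 of 211 solute carriers of the SLC series (5.21%), 4 of 33 ZBTB genes and 3 of 19 ZDHHC palmitoyltransferases. LRRC8B, LRRC8C and LRRC8D, neighbours on chromosome 1 that encode subunits of one anion channel, each had a broad peak, all within 298 kb.

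Of the length classes of promoter peaks, the broad one had the highest median level. Median normalised CPM was 65.7 in members, 43.4 at 600 to under 900 bp, 25.0 at 400 to under 600 bp, 11.1 at 200 to under 400 bp and 3.71 under 200 bp. Per kb of peak the medians were 61.9 in members and 60.4 at 600 to under 900 bp, so most of the difference between these classes went with length. The median count of a member was 211.5 and 276 in the sgFLT3-DE-1 libraries, against 215 and 158.5 in the sgNT libraries, and the lowest count of any member in any library was 31. The level nonetheless varied widely, from 13.1 normalised CPM at MYEF2 to 1094 at EEF1A1. EEF1A1 was followed by ZBTB20 (347), a BTB zinc finger repressor, GSK3B (325.8), GOLIM4 (283), a Golgi membrane protein, SLC16A7 (223), ATP2B1 (215), a calcium pump of the plasma membrane, HBB (212) and DPYD (197), the enzyme that begins the breakdown of uracil and thymine. HBB stood in this order through the sgFLT3-DE-1 libraries, since it averaged 376 in them and 48.4 in the sgNT libraries, below the median of all members. ZBTB20 had 443.6 and 269.8 normalised CPM with sgFLT3-DE-1, against 390.7 and 283.9 with sgNT. GSK3B had 338 and 262 with sgFLT3-DE-1, against 386 and 317 with sgNT. In both genes the groups overlapped, and the library numbered 1 was the higher one with either guide. The gap between numbers was larger at higher levels. In the 102 members of highest level library 1 exceeded library 2 by a median ratio of 1.29 in sgFLT3-DE-1 cells and 1.25 in sgNT cells, and in the 102 of lowest level the ratio came to 0.898 in sgFLT3-DE-1 cells and 1.03 in sgNT cells.

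**Figure D2:**
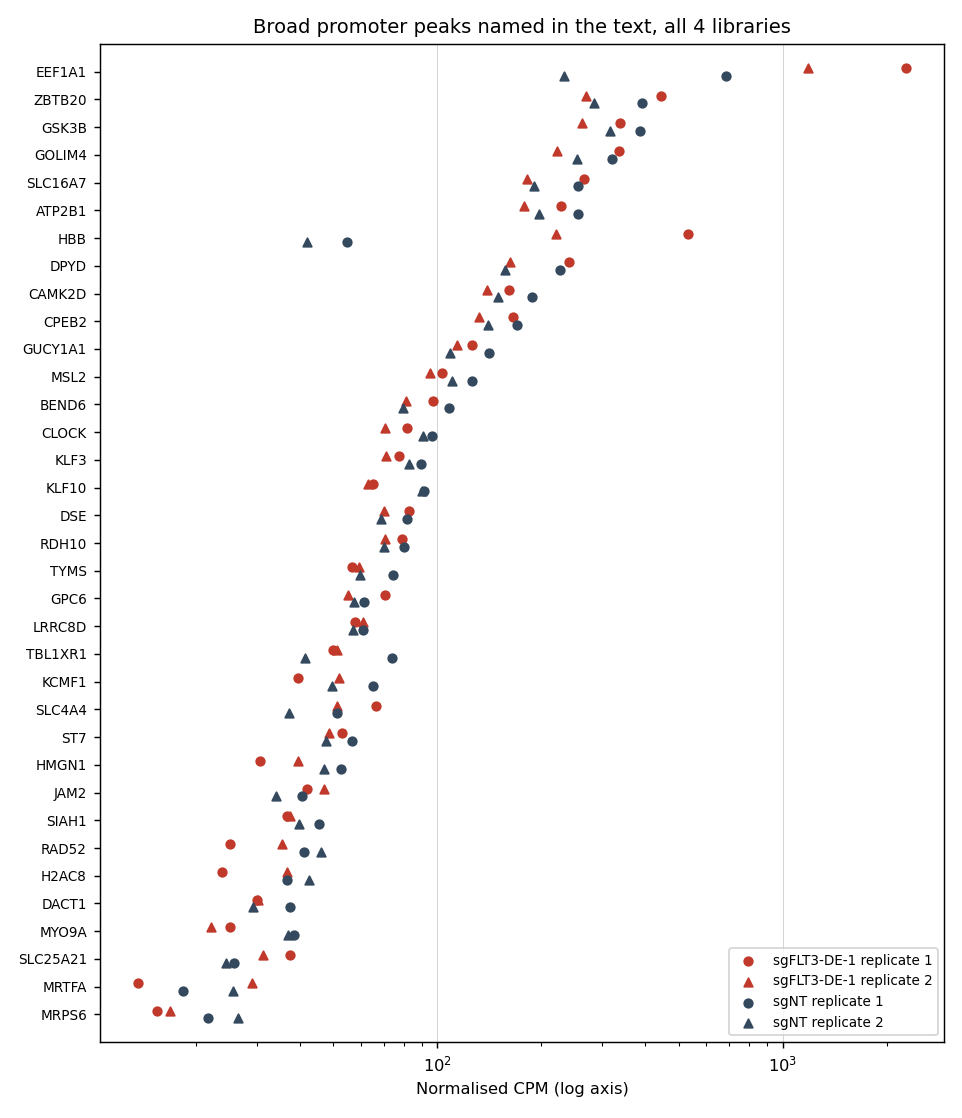
Normalised CPM (log axis) of each of the 35 broad promoter peaks chosen by the naming rule, in the 2 sgFLT3-DE-1 libraries (red) and the 2 sgNT libraries (dark), circles for replicate 1 and triangles for replicate 2. At HBB and EEF1A1 both sgFLT3-DE-1 libraries lie above both sgNT libraries, and at most other peaks the groups overlap or differ little.

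Most members were GC-rich. Median GC content was 70.3% in members (quartiles 66.7% and 73.3%), 68.8% at 600 to under 900 bp, 66.1% at 200 to under 400 bp and 62.6% under 200 bp, compared with 49.2% in all tested peaks. The CpG dinucleotide, which methylation depletes elsewhere in the genome, was present at 0.866 times the frequency that the base composition gives (median of members), against 0.800 in all promoter peaks and 0.254 in all tested peaks. GC content was above 60% in 295 members, and 2 were below 50%. The highest values were 81.3% at KCMF1 and 80.5% at SIAH1, both ubiquitin ligases, and 79.7% at KLF3, a transcriptional repressor. The lowest were 40.1% at HBB, 45.2% at MRTFA, an actin-regulated coactivator of SRF, and 50.3% at H2AC8. Within the members a higher GC content went with a somewhat lower level (Spearman -0.22 over 306 peaks of the same libraries, a description). Over all 17179 tested promoter peaks the coefficient was 0.10, but there level also went up with length (Spearman 0.79). For level per kb of peak the coefficient with GC content was -0.22 in members and -0.04 over all tested promoter peaks. Median level was 76.0 normalised CPM in the 102 members of lowest GC content, 68.0 in the middle 102 and 52.5 in the 102 of highest. Tagmentation and PCR both depend on base composition, and their part in these levels was not tested.

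**Figure D3:**
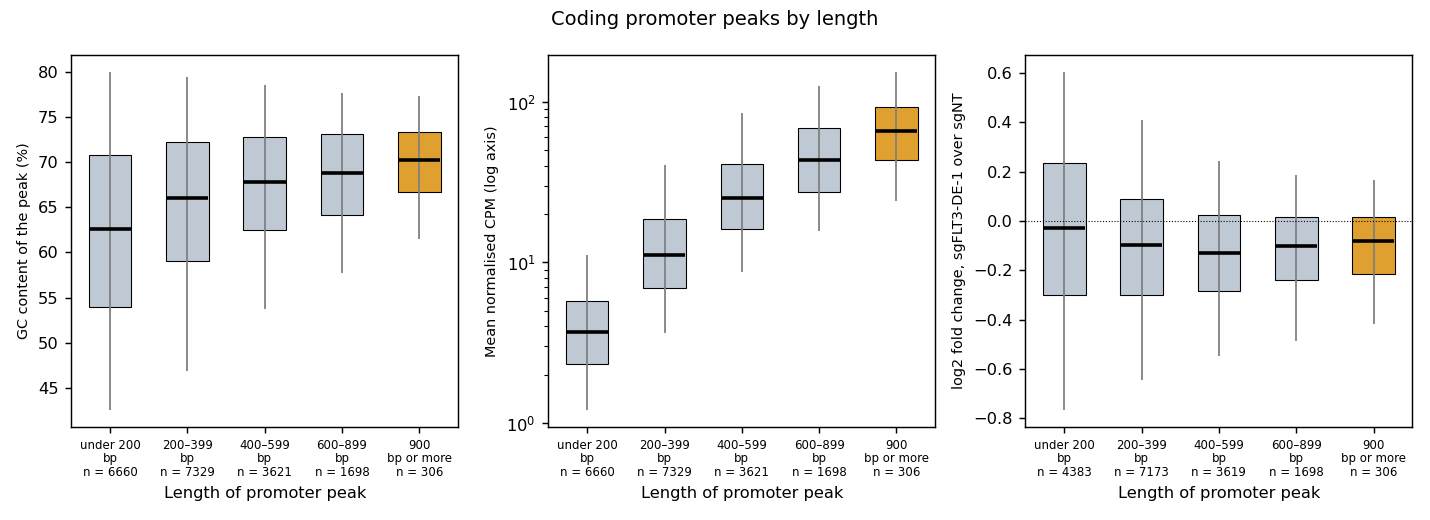
GC content in percent, mean normalised CPM over 4 libraries (log axis) and fitted log2 fold change of sgFLT3-DE-1 over sgNT for coding promoter peaks by length, with members in orange; boxes span the quartiles, thick lines are medians and thin lines run from the 5th to the 95th percentile. Median GC content goes up with length to 70.3% and median level to 65.7, while the median log2 fold change of members is -0.08, or 0.07 after GC correction (not drawn).

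The search for 10 motifs covered 300 bp around the middle of each promoter peak on both strands. The median length of all promoter peaks was 268 bp, so in many of them this window took in bases beside the peak. In members it lay wholly inside the peak. The GC box was searched as GGGCGG and the CCAAT box by its own letters. The ETS site was CCGGAAG, the NRF1 site GCATGCGC, the cyclic AMP response element (CRE) TGACGTCA and the E-box CACGTG. The YY1 site was AAGATGGC, the TATA box TATAAA, the RUNX site TGTGGT and the HOX-PBX site TGATTTAT. No motif contains another. GC boxes were present in 82.7% of members, 80.7% of promoter peaks of 600 to under 900 bp and 63.5% of all promoter peaks. CCAAT boxes were present in 16.0% of members, 26.9% at 600 to under 900 bp and 28.8% of all promoter peaks, and RUNX letters in 3.59%, 7.42% and 12.5%. The middle of a long peak need not be near its start. In a window from 250 bp upstream to 50 bp downstream of the lead start, chosen after the first result was seen, CCAAT boxes were present in 27.3% of the 297 members that cover a start, against 34.5% of such peaks at 600 to under 900 bp and 35.9% of all such promoter peaks. GC boxes were then present in 82.8%, 81.4% and 72.8%. In the central window the ETS site was in 9.48% of members, 13.8% at 600 to under 900 bp and 13.2% of all promoter peaks. In the same order the E-box was in 5.23%, 8.2% and 8.50%, and the CRE in 0.327%, 1.53% and 2.02%. The TATA box was in 2.61%, 2.06% and 4.77%, and the NRF1 site in 3.27%, 3.53% and 3.59%. The YY1 site was in 3.59%, 2.83% and 3.35%, and the HOX-PBX site in 0.327%, 0.0589% and 0.382%. In the window at the start the order of members and all promoter peaks turned for the NRF1 site, at 6.40% and 5.81%. The order also turned for the YY1 site, at 3.70% and 5.36%. In that window the ETS site was in 13.5% of members, against 16.29% at 600 to under 900 bp and 19.04% of all such promoter peaks. These are matches of letters and not measured binding.

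The question for the guide comparison was how sgFLT3-DE-1, aimed at a distant enhancer, altered accessibility elsewhere. With edgeR's quasi-likelihood test and Benjamini-Hochberg adjustment over 82558 tested peaks, 1 member was higher with sgFLT3-DE-1 at FDR 0.05, the HBB peak, where 2 of all tested peaks were higher (0.00242%). The other of these 2 also lies in the HBB gene, so the calls stand for 1 locus and give no rate among broad promoters. Peaks were merged over both guides, and whether the HBB peak owes its length to the sgFLT3-DE-1 libraries was not tested. No member was lower, and 0.0% of all tested peaks were; DESeq2 and limma-voom gave 0 lower members as well. At an unadjusted p under 0.05, 2 members were higher (HBB and EEF1A1) and 2 lower (MYO9A and MRPS6), which is 0.654% of members in each direction, where 0.827% of all tested peaks were higher and 1.07% lower. The log2 fold change differed from 0 by more than 0.5 in 7 members (2.29%), compared with 4.53% at 600 to under 900 bp and 16.0% of all tested peaks. The standard error of members ran from 0.25 to 0.438 on the log2 scale, so changes of the size seen at most of them were not detectable with these libraries.

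Estimates at broad promoters lay mostly below 0 with TMM scaling, but mostly above 0 after a correction for GC content. The fitted estimate was below 0 in 217 of 306 members (70.9%), where 48.1% of all tested peaks were below 0, 63.2% of other promoter peaks and 72.0% of promoter peaks of 600 to under 900 bp. Both sgFLT3-DE-1 libraries were below both sgNT libraries in 77 members (25.2%), where 13.8% of all tested peaks and 29.2% of promoter peaks of 600 to under 900 bp were. Both were above in 9 (2.94%), where 13.7% of all tested peaks and 3.53% of promoter peaks of 600 to under 900 bp were. The median log2 fold change was -0.08 in members, -0.09 in other promoter peaks and 0.01 in all tested peaks. After a correction for GC content the members' median was 0.07 and 114 of 306 estimates were below 0. The median of all tested peaks was then 0.02. With TMM scaling, leaving out a library also moved the members' values. Without sgNT replicate 1 their median was 0.01 with 150 estimates below 0, beside a median of 0.03 in all tested peaks. Without sgNT replicate 2 it was -0.20 with 275 below 0, beside 0.02 in all tested peaks. The direction of the median thus changed with the treatment of GC content and with the choice of libraries. In the 102 members of lowest GC content the median was -0.02, in the middle 102 it was -0.13 and in the 102 of highest it was -0.10. The members' median ratio of sgFLT3-DE-1 to sgNT was 0.913 for the libraries numbered 1 and 0.963 for those numbered 2. Of the 4 pairings of a library of each guide 1 had a median above 0, at 0.09 on the log2 scale for sgFLT3-DE-1 replicate 1 over sgNT replicate 2, and the others lay between -0.24 and -0.05.

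**Figure D4:**
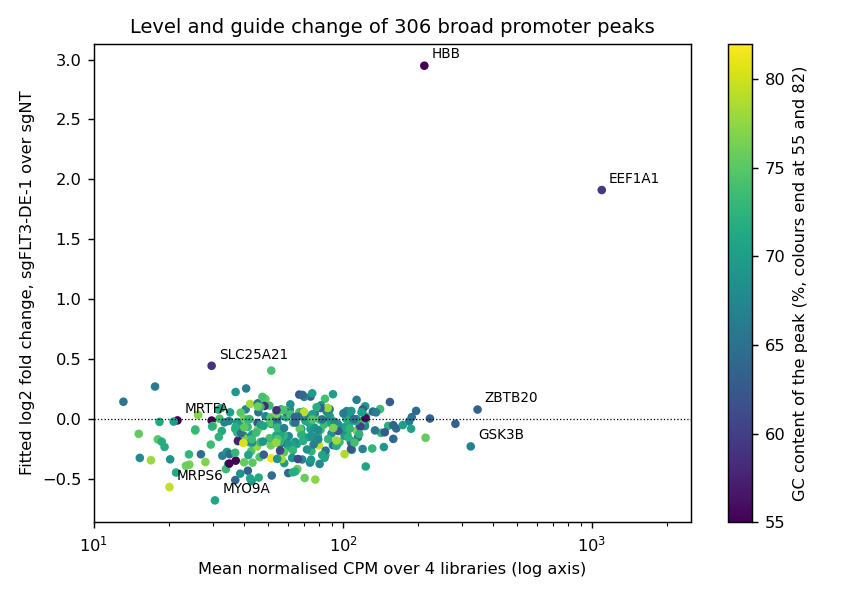
Mean normalised CPM over 4 libraries (log axis) and fitted log2 fold change of sgFLT3-DE-1 over sgNT for the 306 members, coloured by GC content in percent. HBB at 2.95 and EEF1A1 at 1.91 stand alone, and the next highest, SLC25A21, is at 0.44.

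The HBB peak, at the gene of adult beta-globin, had counts of 1719 and 997 with sgFLT3-DE-1, against 164 and 105 with sgNT, so the groups were far apart. Normalised CPM averaged 376 ± 219.6 in sgFLT3-DE-1 cells against 48.4 ± 9.03 in sgNT cells (SD over 2 libraries each). The ratio was 9.69 for the libraries numbered 1 and 5.24 for those numbered 2. By edgeR its log2 fold change came to 2.95 with SE 0.362 and adjusted p = 0.00052, and the adjusted p ran from 2.45e-105 to 0.209 over the other settings. It no longer passed with DESeq2 (adjusted p = 0.0942), with a mean count of at least 50 (0.0666), after GC correction (0.147) or without sgNT replicate 2 (0.209). A second peak in the HBB gene, 111 bp long and thus no member, had 137 and 85 counts with sgFLT3-DE-1, against 18 and 8 with sgNT. Among other erythroid markers, HBA1, HBA2, KLF1, ALAS2 and EPOR had no consensus peak within 1 kb of a coding start.

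The EEF1A1 peak covers 308 bp upstream of the gene's start, 57 bp of exons and 943 bp of intron. It held 7355 and 5360 counts with sgFLT3-DE-1, against 2053 and 579 with sgNT, which ranked it 1 of all peaks in the first 3 of these libraries and 5 in the last. It took 0.200% and 0.111% of all counts in the sgFLT3-DE-1 libraries, against 0.0618% and 0.0216% in the sgNT libraries. The libraries of a guide differed widely too, at 1729 ± 768 normalised CPM in sgFLT3-DE-1 cells against 459 ± 321 in sgNT cells (SD over 2 libraries each). The log2 fold change of 1.91 (SE 0.438) did not pass by edgeR (adjusted p = 1.0), and its adjusted p ran from 1.03e-64 to 1.0 over the other settings. It passed without sgFLT3-DE-1 replicate 2 (2.30, adjusted p = 2.05e-06), with limma-voom (2.04, adjusted p = 0.0406), with loess offsets, with no filter, with the replicate block and with GC correction and the block. Its estimate was 2.89 without sgNT replicate 1 and 1.31 without sgNT replicate 2. A peak over RNU6-1, a gene of U6 small nuclear RNA and no coding promoter, moved with both, at 1526 and 1006 counts with sgFLT3-DE-1, against 369 and 184 with sgNT (log2 fold change 1.81, SE 0.343, edgeR adjusted p = 0.252). Guide vectors of this kind carry a U6 promoter, and the part of vector sequence in these 3 peaks was not tested. Without HBB and EEF1A1, a choice made after seeing the data, the SD of log2 fold changes over the other 304 members was 0.176, against 0.273 with them.

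**Figure D5:**
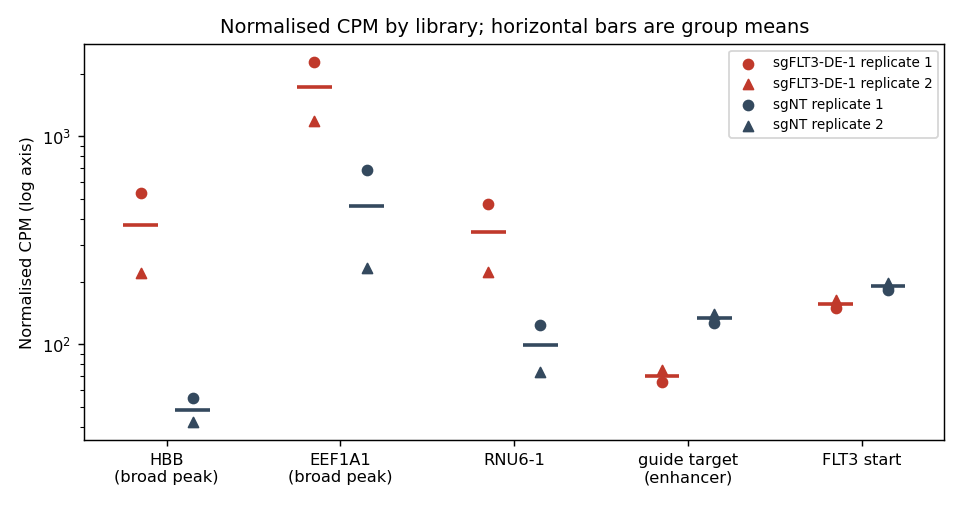
Normalised CPM (log axis) of 5 peaks in the 2 sgFLT3-DE-1 libraries (red, left of each pair) and the 2 sgNT libraries (dark, right), with replicate 1 as circles, replicate 2 as triangles and group means as bars. HBB, EEF1A1 and RNU6-1 are higher with sgFLT3-DE-1, while the enhancer peak that holds the guide site is at 70.4 with sgFLT3-DE-1 and 133 with sgNT.

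Members on the lower side differed by modest amounts. The MYO9A peak, which also covers the start of the NEDD8 protease gene SENP8, had 81 and 100 counts with sgFLT3-DE-1, against 115 and 92 with sgNT, or 25.0 and 22.1 normalised CPM with sgFLT3-DE-1, against 38.4 and 36.8 with sgNT. Both libraries of sgFLT3-DE-1 were lower, by -0.68 on the log2 scale (SE 0.256). MRPS6, a mitochondrial ribosomal protein gene that shares its peak with the inositol transporter gene SLC5A3, was at 15.4 and 16.8 normalised CPM with sgFLT3-DE-1, against 21.7 and 26.4 with sgNT (-0.57, SE 0.276). Values were -0.51 (SE 0.26) for RAD52, a recombination gene, -0.51 (SE 0.255) for KLF10 and -0.50 (SE 0.255) for HMGN1, a nucleosome-binding protein gene. After GC correction KLF10 was at -0.31 and MRPS6 at -0.37. With a library left out RAD52 ran from -0.81 to -0.30. On the higher side SLC25A21, a mitochondrial carrier gene, had 37.4 and 31.2 normalised CPM with sgFLT3-DE-1, against 25.7 and 24.4 with sgNT (0.44, SE 0.259). SLC4A4, a sodium bicarbonate cotransporter gene, was at 0.40 (SE 0.263), or from 0.17 to 0.65 with a library left out. JAM2, an adhesion protein gene, was at 0.25 (SE 0.253), or from 0.11 to 0.38. None of these passed after adjustment (adjusted p = 1.0 for each by edgeR).

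By edgeR none of the longest members passed after adjustment, with estimates from -0.30 to 0.08. CLOCK had 81.9 and 70.5 normalised CPM with sgFLT3-DE-1, against 96.6 and 90.9 with sgNT, with both sgFLT3-DE-1 libraries lower (-0.30, SE 0.258, adjusted p = 1.0 by edgeR). After GC correction it was at -0.14. GSK3B was at -0.23 (SE 0.302), or from -0.43 to -0.07 with a library left out. MSL2 was at -0.26 (SE 0.263), also with both sgFLT3-DE-1 libraries lower. CAMK2D was at -0.17 (SE 0.276) and GUCY1A1 at -0.06 (SE 0.269). DSE, SLC16A7 and LRRC8D lay between 0.00 and 0.01, GPC6 was at 0.08 and ST7 at -0.04. CPEB2, of the MLL-fusion list, had 166 and 132 normalised CPM with sgFLT3-DE-1, against 169 and 140 with sgNT (-0.06, SE 0.275), and its estimate was above 0 after GC correction, at 0.11.

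The promoter of FLT3 itself fell just short of the length threshold. Its peak of 877 bp, on chromosome 13 from 28674277 to 28675153 with 73.6% GC, had 485 and 733 counts with sgFLT3-DE-1, against 545 and 494 with sgNT, or 156 ± 8.68 normalised CPM in sgFLT3-DE-1 cells against 190.0 ± 11.1 in sgNT cells (SD over 2 libraries each). Both sgFLT3-DE-1 libraries were lower, by -0.28 on the log2 scale (SE 0.275, edgeR adjusted p = 1.0). Its level of 173 normalised CPM lay within the range of the 102 strongest members, 82.5 to 1094. The 2 peaks that cover starts of PAN3, whose intron holds the guide site, were at -0.18 and -0.22. The peak at the site itself was at -0.92 (SE 0.264), which did not pass either (edgeR adjusted p = 1.0, unadjusted p = 0.00164). Both sgFLT3-DE-1 libraries were lower there, at 66.1 and 74.7 normalised CPM, against 126 and 140 with sgNT. The paper reports this locus as its most significant loss of accessibility, past its FDR threshold. Its sources name ABSSeq or limma-voom for that test. The missing edgeR call is thus no evidence that the target was unchanged. With 2 libraries a guide, no exact permutation test of a single peak could reach a p under 0.33.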

How the data were processed

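ATAC-seq was carried out on SEM cells with sgFLT3-DE-1 or sgNT, 2 libraries each. The authors deposited raw read counts per consensus peak, with the peak positions. Sources differ on the steps. The reporting summary and processing notes give Trim Galore 0.4.4 for trimming, BWA for mapping to hg19, SAMtools 1.2 for read selection, bedtools 2.24.0 to keep short nucleosome-free fragments and MACS2 2.1.1.20160309 for peaks, with peaks reproducible within a condition then merged over conditions. The main methods instead give cutadapt, Bowtie2 and MACS2 on each sample with merging. Library totals ran from 2683477 to 4831164 counts.

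Members and gene lists were chosen with earlier results of these data known. Peaks of at least 900 bp (end minus start) within 1 kb of a start of a protein-coding transcript in the basic set of GENCODE 44, lifted to GRCh37, were kept. Named members were the 10 longest, the 8 highest in level, the 3 at each end of GC content, any past FDR 0.05, the 5 higher and 5 lower ones with the least p, up to 3 per gene list and the 3 peaks on either side of the length threshold. Others named were chosen after their values were seen. Counts were tested with edgeR 4.0.16 (filterByExpr, TMM, quasi-likelihood F test on guide, Benjamini-Hochberg over 82558 peaks) in R 4.3.3, and SE is the absolute log2 fold change divided by the root of F. Limma 3.58.1 and DESeq2 1.42.0 were alternatives. Only the main edgeR fit was tested on simulated data, in which all peaks shared the same dispersion. GC content and motifs were read from GRCh37.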

Additional observations from a re-analysis of the deposited data

How the results depend on the processing

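The number of broad promoter peaks higher with sgFLT3-DE-1 at FDR 0.05 was 1 by edgeR. It was 2 with loess offsets, no filter, limma-voom, the replicate block, or GC correction with the block, the second being EEF1A1. It was 0 with a mean count of at least 50, DESeq2, GC correction, a distance of 500 bp, a covered start, or without the HBB and EEF1A1 peaks (chosen after seeing the data), and 0 to 2 with a library left out. The number lower was 0 throughout. The labels give libraries of the 2 guides the same numbers and do not say what else same-numbered libraries share. The correlation between the deviations of same-numbered libraries was 0.397. The median log2 fold change of -0.08 became 0.0704 with GC correction, and ran from -0.20 to 0.01 with a library left out (150 to 275 of 306 estimates below 0). With no filter this median was -0.145 (258 of 306 below 0). The median level was 60.65 normalised CPM at a length of at least 800 bp, and 64.2 to 67.5 with a library left out. Of 490 values for 35 named members under the alternatives, 439 kept their call or, where no call was made, moved by less than the spread between libraries, 41 moved by more, 6 gained a call and 4 lost one. In the window at the start, chosen after seeing the data, the share of members was 27.3% for CCAAT, 13.5% for ETS and 6.40% for NRF1 letters.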

Other observations

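Several members belong to cytokine and growth factor signalling, and were picked after their values were seen. JAK2, a kinase that relays cytokine receptors, averaged 124.7 normalised CPM with sgFLT3-DE-1 against 122.9 with sgNT (log2 fold change 0.02, SE 0.267). The groups overlapped there, and at JAK1, a kinase of the same family, at 0.05 (SE 0.253). PIK3CA, the catalytic subunit of PI3 kinase, was at -0.21 (SE 0.265), BRAF at 0.06 (SE 0.258) and RASA1, a RAS GTPase-activating protein, at -0.10 (SE 0.271).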
